A study of Mus musculus with 4 samples.

Results

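A set of 10 negative feedback regulators of signalling was followed in the hypothalamus of salt-challenged mice, namely the phosphatase genes Dusp1, Dusp5 and Dusp6, the kinase and receptor regulators Sik1, Trib1 and Errfi1, the G-protein regulator Rgs2, and the regulators of RNA and transcription Btg2, Zfp36 and Ier2. Of the 25697 probes in the deposited intensity table, the 10 probes whose gene name was one of these symbols were taken, and they covered 8 of the 10 genes. Sik1 was found under its older symbol Snf1lk, through RefSeq's synonyms, and its 1 probe is counted apart. Dusp5 was not analysed here, since no probe carried its name. The probes of Trib1 and Ier2 were at background on all 8 arrays. This left 6 genes by their names in the file, plus Sik1, among the 14199 probes of 10182 genes that were tested.

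The study captured ribosomes from activated cells. C57Bl/6J mice aged 12 weeks received 325 uL of 2 M NaCl (salt) or phosphate-buffered saline (control), lost access to water and were killed 2 h later at about circadian time 6. Ribosomes carrying ribosomal protein S6 phosphorylated at residues 244 and 247 were immunoprecipitated (IP) from hypothalamic homogenate with a single antibody, and total RNA of the same homogenate was the input. Each group had 2 samples, each with 1 IP and 1 input array. All mice were of this strain with no genetic change named, and nothing in the labels tells if single animals or pools made up the samples. P-values therefore rest on the spread between these samples, which may be technical. The fit moderates that spread toward that of all tested probes, and for levels it pools the IP and input arrays.

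Neurons answer strong input with rises in calcium, cyclic AMP and MAP kinase activity, which induce a first wave of transcription factor genes. Part of the same wave encodes proteins that end it. Dual-specificity phosphatases remove phosphate from MAP kinases, RGS proteins speed the switching-off of G proteins, ERRFI1 binds and inhibits receptors of the epidermal growth factor family, and SIK1 holds back the CREB coactivators of the CRTC family. BTG2 and ZFP36 (tristetraprolin) both recruit deadenylases to mRNA, and ZFP36 does so on transcripts with AU-rich elements. S6 phosphorylation, taken over all its sites, lies downstream of the MAP kinase and mTOR pathways. Which of these pathways acted on the residues used for capture was not measured. Whether that mark and these genes answered to shared signals was not tested.

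The promoters of the 5 members with the highest salt against control differences in the input are shown because a cyclic AMP response element (CRE), the site bound by CREB, or a CArG box, the site of serum response factor, is what such genes are best known for carrying. The table of RefSeq promoters (GRCm38.p6) held 7 of the 10 members in 8 windows, with no entry for Sik1, Trib1 or Ier2, and the 250 bases before each annotated start were searched on both strands. A full CRE was defined as TGACGTCA, a palindrome. The short CRE was TGACG or its reverse complement CGTCA, outside a full CRE, and the CArG box was searched by its consensus. A full CRE stood before the start of Dusp1, Btg2 and the second of the 2 annotated starts of Errfi1, 3 of 8 windows, against 1.55% of all 32851 windows in the table. Its first base lay 143 bases upstream of the start in Dusp1, 166 in Btg2 and 51 in Errfi1, and Dusp1 had a short CRE too, 191 bases upstream. A CArG box stood 58 bases upstream in Zfp36 (1.47% of all windows), and Dusp5 had 2 CArG boxes and a short CRE. Rgs2 had 2 short CREs, 67 and 185 bases upstream, and no full CRE (16.6% of all windows hold a short CRE). Dusp6 and the first Errfi1 start had none of these letters in the window. The windows are chr17:26508473-26508722 (minus strand) for Dusp1, chr1:134079156-134079405 (minus) for Btg2, chr4:150854820-150855069 (plus) for Errfi1, chr7:28379229-28379478 (minus) for Zfp36 and chr1:144004150-144004399 (minus) for Rgs2. They are printed 5′ to 3′ on the gene's strand, with full CREs, short CREs and CArG boxes in capitals. A match describes letters only, and no binding was measured here.
Dusp1: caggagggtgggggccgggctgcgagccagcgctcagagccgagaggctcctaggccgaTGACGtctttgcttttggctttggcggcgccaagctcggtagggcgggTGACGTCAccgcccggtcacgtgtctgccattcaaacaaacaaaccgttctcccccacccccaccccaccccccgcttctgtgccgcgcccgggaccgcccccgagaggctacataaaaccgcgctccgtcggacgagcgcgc
Btg2: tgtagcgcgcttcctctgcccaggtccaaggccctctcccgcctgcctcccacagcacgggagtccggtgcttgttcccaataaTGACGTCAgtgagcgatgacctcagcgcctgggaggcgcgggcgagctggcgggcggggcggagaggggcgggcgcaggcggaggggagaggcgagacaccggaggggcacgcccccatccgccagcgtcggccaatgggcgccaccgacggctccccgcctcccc
Errfi1: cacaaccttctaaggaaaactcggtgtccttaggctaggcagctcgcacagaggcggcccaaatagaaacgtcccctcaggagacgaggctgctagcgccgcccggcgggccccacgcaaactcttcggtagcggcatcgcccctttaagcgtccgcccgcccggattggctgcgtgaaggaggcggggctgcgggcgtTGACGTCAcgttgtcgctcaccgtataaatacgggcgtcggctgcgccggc
Zfp36: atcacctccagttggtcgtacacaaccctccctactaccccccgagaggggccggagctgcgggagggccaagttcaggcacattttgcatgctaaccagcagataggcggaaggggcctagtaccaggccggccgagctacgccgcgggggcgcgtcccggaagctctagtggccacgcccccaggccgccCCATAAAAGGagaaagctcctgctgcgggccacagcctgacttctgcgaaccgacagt
Rgs2: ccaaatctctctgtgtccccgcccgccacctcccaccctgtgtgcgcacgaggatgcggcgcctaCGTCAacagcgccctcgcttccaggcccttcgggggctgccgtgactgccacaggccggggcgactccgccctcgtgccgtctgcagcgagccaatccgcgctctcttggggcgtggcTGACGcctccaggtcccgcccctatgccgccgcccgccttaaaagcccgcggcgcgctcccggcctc

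**Figure D1:**
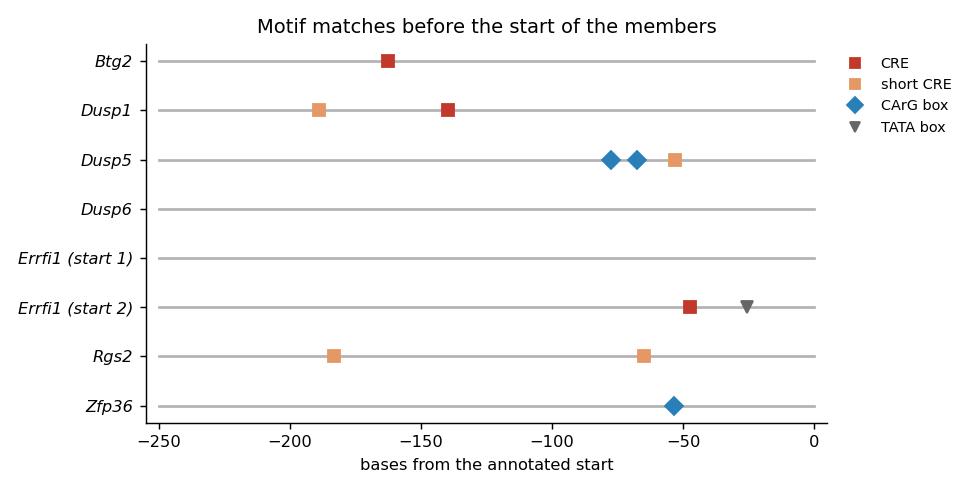
Matches to the full CRE, the short CRE outside a full CRE, the CArG box and the TATA box in the 250 bases before each annotated start of the members; the x axis is the distance in bases from the start. Full CREs lie at 143 bases upstream in Dusp1, 166 in Btg2 and 51 in the second Errfi1 start, and Rgs2 has short CREs alone.

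On the 8 arrays, 12259 to 13808 of 25697 probes were detected, and undetected probes had median intensities of 99.3 to 112.2, which is the background that the deposited values still hold. All 10 hypothalamic marker genes were above background on 2 or more arrays, Avp and Oxt among them. Of 7 markers of neighbouring regions, Prl and Gh of the pituitary and Neurod6 of the cortex were at background. The others, Tbr1, Drd1, Drd2 and Ppp1r1b, were detected on all 8 arrays. Summed microglial markers were lower on the salt IP arrays (343 and 347 on the linear normalized scale) than on the control IP arrays (485 and 519), with 4 of 7 markers measured and Csf1r, Tmem119 and C1qa at background. In the input they overlapped (636 to 749 in salt, 706 to 732 in control). Summed neuronal markers overlapped between salt (3214 and 4021) and control (3334 and 3827) in the IP, as did astrocyte markers (3964 and 5837 against 3576 and 6138). Summed oligodendrocyte markers were slightly higher in the salt IP (13310 and 13941) than in the control IP (13189 and 12535). Summed markers of neighbouring regions, 4 of 7 measured, were lower (436 and 448 against 507 and 568.1). Among these 4, Ppp1r1b differed most in the IP (-1.01 ± 0.22, not passing), while Drd1, Drd2 and Tbr1 lay between -0.19 and -0.04. Of the hypothalamic markers, 8 of 10 had an IP difference above 0, where 49.4% of all tested probes did. Among the 8, Pomc, Crh and Agrp were detected on no control IP array, so their fitted differences are descriptions. Pomc was detected on the salt IP arrays alone and entered the test only through them. Of the 10 markers 1 passed, Avp, the vasopressin gene (3.41 ± 0.36, adjusted p = 0.0125). Oxt, the oxytocin gene, differed by 1.05 ± 0.28 and did not pass (adjusted p = 0.499). The list's summed level overlapped in the IP (4813 and 6641 in salt, 4245 and 5914 in control). Its median difference was 0.63 in the IP, with Pomc, Crh and Agrp included, and 0.05 in the input. Summed blood markers, 2 of 4 measured, were higher in the salt input (1116 and 1078) than in the control input (1061 and 637) and overlapped in the IP (2327 and 1705 against 2273 and 2051). The part of these markers in the results below was not tested.

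Levels of most of these regulators were higher in salt than in control samples, in phosphorylated ribosomes and in total RNA alike. In the IP, Dusp1 rose 2.40-fold and Btg2 rose 3.32-fold, and these were the 2 of 6 members that passed a threshold of 0.05 on the adjusted p, with 0 lower. Over all tested probes 0.134% passed in that direction. At an unadjusted p under 0.05, 4 of 6 members were higher in the IP, Errfi1 and Zfp36 being the others, against 2.87% of all probes. In the input 0 of 6 passed (0.0141% of all probes did), while all 6 were higher at an unadjusted p under 0.05, against 1.18% of all probes. The members' median difference on the log2 scale was 1.13 in the IP and 0.77 in the input, where the medians of all tested probes were -0.0029 and -0.0043. Both salt samples lay above both controls for 5 of 6 members in the IP (15.2% of all probes did so) and for 6 of 6 in the input (12.6%). The members were chosen with earlier results of these data known, so these counts and shares describe them and do not test them as a set. Differences are salt minus control of log2 normalized intensity from limma's fit over all 8 arrays, errors are standard errors (SE) with n = 2 samples per group, and p-values were adjusted by the Benjamini-Hochberg method over all 14199 probes. In bulk tissue, more cells with an mRNA and more of it per cell cannot be told apart.

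**Figure D2:**
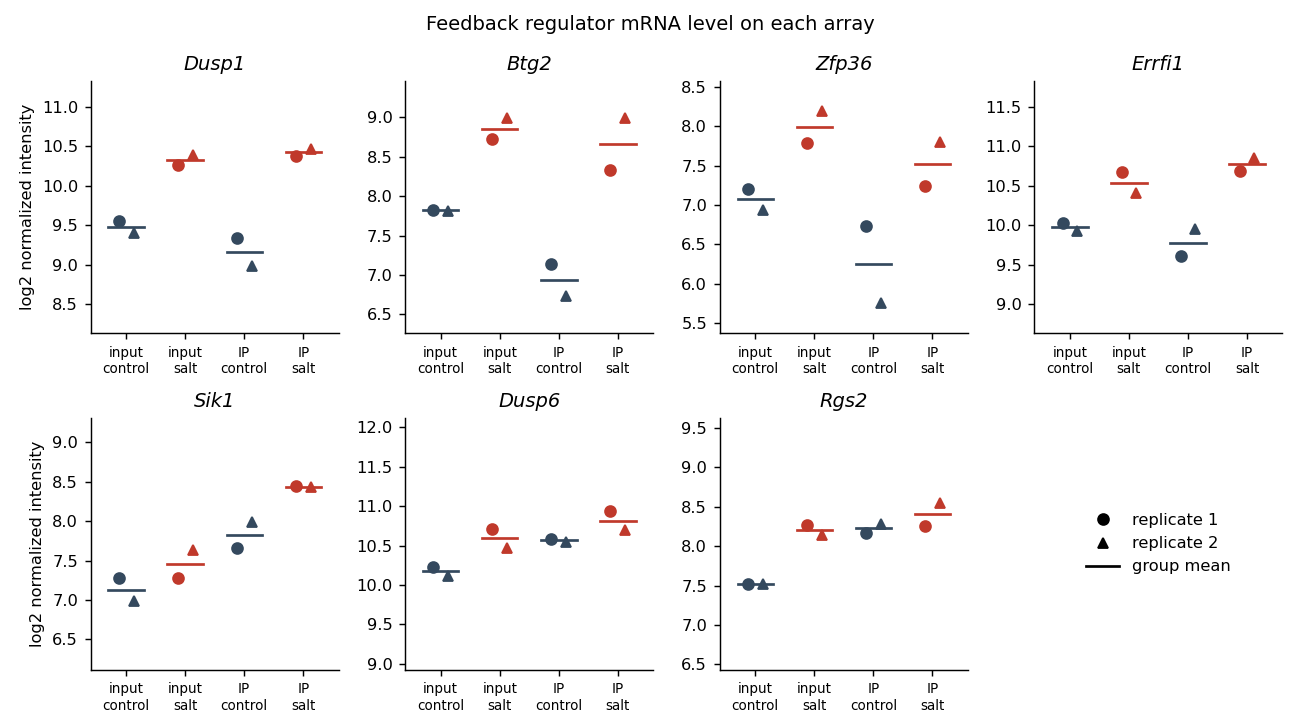
Log2 normalized intensity of the 7 measured members on each of the 8 arrays, by RNA (input or IP) and treatment; circles and triangles are the samples labelled 1 and 2, and bars are group means. Every panel spans the same number of log2 units, and in the input both salt points lie above both control points for every member but Sik1.

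Dusp1 encodes a nuclear phosphatase of MAP kinases that is itself an immediate early gene. Its deposited IP intensities were 797.2 and 553.9 in control and 1436.9 and 1422.7 in salt. The input gave 909.6 and 709.0 in control and 1420.3 and 1416.1 in salt. Both salt samples thus lay above both controls in either RNA, and the salt samples were close together while the controls were spread. On the log2 scale the IP mean went from 9.16 (SD 0.25) to 10.43 (SD 0.07), a difference of 1.27 ± 0.17 with an adjusted p of 0.0334. In the input the difference was 0.85 ± 0.17, or 1.80-fold, and did not pass (adjusted p = 0.589), although it had the p of rank 18 in the table.

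Dusp6, whose product is a cytoplasmic phosphatase of ERK, differed less. The brightest of its 3 probes had IP intensities of 1687.4 and 1375.8 in control and 2056.5 and 1654.8 in salt, which overlapped before normalization. Input intensities were 1424.7 and 1124.6 in control and 1942.2 and 1493.6 in salt. The log2 difference was 0.25 ± 0.17 in the IP (adjusted p = 0.990) and 0.42 ± 0.17 in the input (adjusted p = 1.00). A second probe gave 0.39 ± 0.15 and 0.41 ± 0.15, with adjusted p of 0.862 and 1.00, so both probes were higher by a similar amount in the input. The third was detected on 1 of the 8 arrays and was not tested.

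Errfi1, the feedback inhibitor of epidermal growth factor receptors, had IP intensities of 931.2 and 964.7 in control and 1745.9 and 1819.8 in salt. Its input intensities were 1241.6 and 1003.4 in control and 1885.5 and 1433.3 in salt. No salt value fell within the control range in either RNA. The IP difference was 1.00 ± 0.18, or 1.99-fold, but did not pass (adjusted p = 0.167), while the input difference was 0.56 ± 0.18 (adjusted p = 1.00). It passed in the IP under 3 alternatives, among them no background correction (0.93, adjusted p = 0.0293).

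Sik1, a kinase that restrains CREB-driven transcription by phosphorylating CRTC proteins, was measured by the Snf1lk probe. IP intensities were 322.3 and 326.9 in control and 453.0 and 430.9 in salt. In the input they were 251.5 and 195.4 in control and 231.8 and 267.8 in salt, with the groups overlapping. The difference was 0.62 ± 0.20 in the IP (adjusted p = 0.760) and 0.33 ± 0.20 in the input (adjusted p = 1.00), and neither passed. Trib1, a pseudokinase gene of the Tribbles family, had intensities of 90.4 to 118.5 on the 8 arrays, within the range of undetected probes.

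Rgs2 encodes a GTPase-activating protein with a preference for the alpha subunit of Gq. Its input intensities were 280.9 and 246.0 in control and 390.8 and 348.0 in salt. The IP intensities were 412.4 and 377.7 in control and 412.9 and 458.1 in salt. Total RNA thus separated the groups, while the normalized IP values of control and salt overlapped. The log2 difference was 0.69 ± 0.16 in the input, or 1.62-fold (unadjusted p = 0.00204, adjusted p = 1.00), and 0.18 ± 0.16 in the IP (adjusted p = 1.00), with a 95% interval of -0.19 to 0.55. Neither passed.

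Btg2, an antiproliferative gene that many stimuli induce in neurons, had the steepest difference of the members. Its IP intensities were 251.4 and 186.4 in control and 429.0 and 586.3 in salt. The input gave 326.2 and 284.5 in control and 514.0 and 561.3 in salt. Salt and control samples were apart in both RNAs, with the 2 salt IP arrays the more unequal. The IP mean went from 6.93 (SD 0.28) to 8.67 (SD 0.46) on the log2 scale, a rise of 1.73 ± 0.24 with a 95% interval of 1.20 to 2.27 (adjusted p = 0.0334). In the input the difference was 1.03 ± 0.24, or 2.05-fold, and did not pass (adjusted p = 1.00).

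Zfp36 encodes the decay factor tristetraprolin. Its IP intensities were 211.4 and 134.5 in control, the lower of them not detected, and 250.4 and 315.2 in salt. Input intensities were 243.8 and 192.1 in control and 299.1 and 356.7 in salt. Salt samples lay above controls in both RNAs, with a wide gap between the control IP arrays. The difference was 1.27 ± 0.32 in the IP (adjusted p = 0.449) and 0.92 ± 0.32 in the input (adjusted p = 1.00), and neither passed. The IP difference was 0.78 without control replicate 2 and 1.76 without control replicate 1. Ier2, an immediate early gene whose product acts in the nucleus, had intensities of 97.2 to 111.5 on the 8 arrays and was not detected on any.

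Both IP calls rested on all 4 samples. With 1 sample left out, the Dusp1 difference ranged from 1.09 to 1.44 (adjusted p = 0.196 to 0.723) and that of Btg2 from 1.40 to 2.06 (adjusted p = 0.109 to 0.723), so neither passed without salt replicate 1, salt replicate 2, control replicate 1 or control replicate 2. Both passed in 9 of the 16 alternatives tried.

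**Figure D3:**
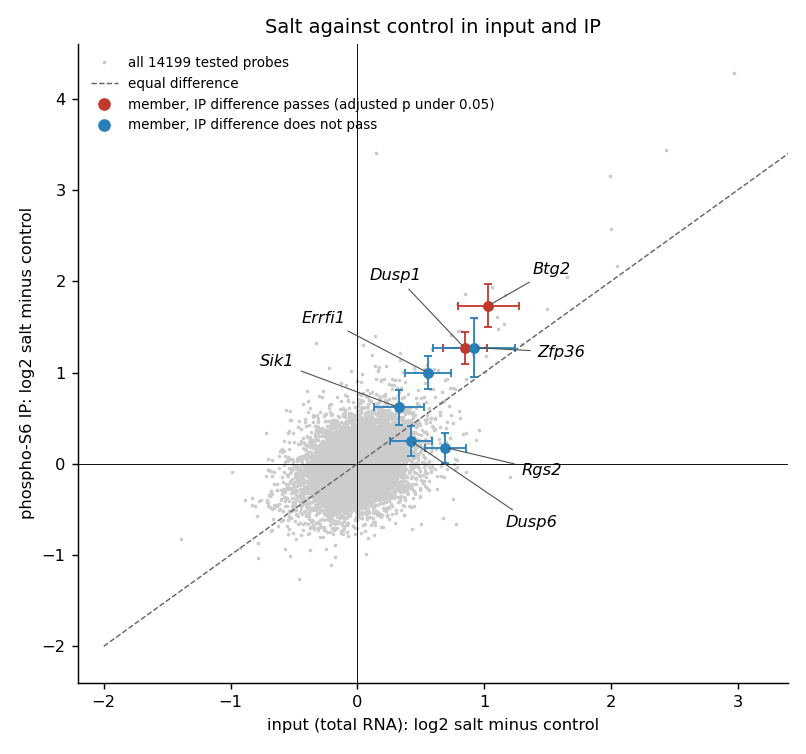
Salt minus control of log2 normalized intensity in the input (x axis) and in the IP (y axis) for all 14199 tested probes (grey) and the 7 measured members, with SE bars; the dashed line marks an equal difference. Dusp1 and Btg2 pass in the IP, and Rgs2 and Dusp6 lie below the line while the other 5 members lie above it.

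The IP/input ratio of each sample asks whether an mRNA changed more among phosphorylated ribosomes than in total RNA, and its difference between groups is the test of IP change against input change. By this measure 0 of 6 members passed, as did 0 of 14199 probes in limma (386 had an unadjusted p under 0.05, and 1.43% of probes were higher at that level). Btg2 alone among the members was higher at an unadjusted p under 0.05. Of the 6 members, 4 had a difference above 0 and 2 below 0, with a median of 0.39 against 0.01 over all probes. The salt samples lay above the controls for Dusp1, Btg2 and Errfi1 (13.7% of all probes) and below them for Dusp6 and Rgs2 (13.1%).

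The log2 IP/input ratio of Btg2 was -0.69 and -1.08 in control and -0.38 and 0.00 in salt. Salt samples were higher, by 0.70 ± 0.26 with a 95% interval of 0.11 to 1.29 (unadjusted p = 0.0258, adjusted p = 1.00). For Dusp1 the ratios were -0.22 and -0.42 in control and 0.12 and 0.08 in salt, a difference of 0.42 ± 0.22 (adjusted p = 1.00). The Dusp1 groups lay on opposite sides of 0, but neither group's own ratio passed with quantile normalization. With median scaling the salt mean turned to -0.22, and the control mean passed (-0.49, adjusted p = 0.0396 in limma). Errfi1 had -0.43 and 0.02 in control and 0.02 and 0.44 in salt, differing by 0.44 ± 0.26, with the higher control next to the lower salt sample. Zfp36 stood at -0.47 and -1.17 in control and -0.55 and -0.39 in salt, overlapping, with a difference of 0.35 ± 0.28. Sik1 stood at 0.37 and 1.01 in control and 1.16 and 0.80 in salt, also overlapping (0.29 ± 0.28).

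Rgs2 went the other way. Its ratio was 0.65 and 0.77 in control and -0.01 and 0.40 in salt, lower in both salt samples by 0.52 ± 0.24 on the log2 scale (95% interval of the difference -1.07 to 0.04, unadjusted p = 0.0636, adjusted p = 1.00). The Rgs2 enrichment seen at baseline was therefore smaller after salt in these samples, but the difference did not pass. Dusp6 had 0.35 and 0.43 in control and 0.22 and 0.23 in salt, a difference of -0.17 ± 0.21 (adjusted p = 1.00), and its second probe differed by -0.02 ± 0.21 with overlapping groups.

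**Figure D4:**
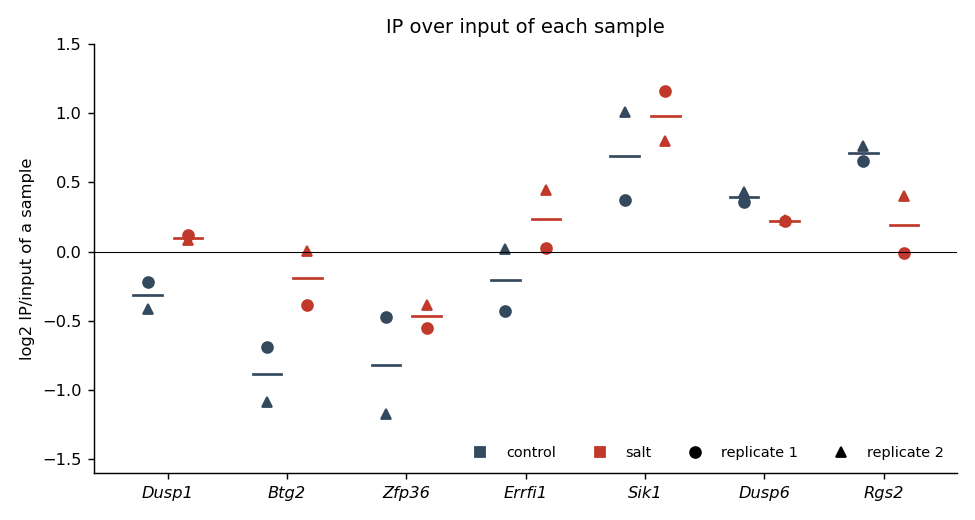
Log2 IP/input of each sample for the 7 measured members, control in dark blue and salt in red, with circles and triangles for the samples labelled 1 and 2 and bars for group means. Dusp1 lies below 0 in both control samples and above 0 in both salt samples, and Rgs2 is lower in both salt samples than in both controls.

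The ratio within each group sets the IP against the input. In control samples Btg2 (-0.89 ± 0.18, adjusted p = 0.00772) and Zfp36 (-0.82 ± 0.20, adjusted p = 0.0145) were lower in the IP than in the input, and Rgs2 was higher (0.71 ± 0.17, adjusted p = 0.0139). The Zfp36 probe was not detected in the IP of control replicate 2, so the ratio there (-1.17) rests on a background reading. The calls are 2 of 6 lower, where 20.1% of all probes were, and 1 of 6 higher, where 19.9% were. Over so few genes these shares are not read as a property of the members. Sik1 was higher as well (0.69 ± 0.20, adjusted p = 0.0278), a call that was lost when dim probes were kept (adjusted p = 0.0607). Dusp1 (-0.32 ± 0.16), Dusp6 (0.39 ± 0.15) and Errfi1 (-0.20 ± 0.19) did not pass. With median scaling Dusp1 was lower in the control IP (-0.49, adjusted p = 0.0396), and with no background correction Dusp6 was higher (0.37, adjusted p = 0.0230). In salt samples Sik1 was again higher in the IP (0.98 ± 0.20, or 1.97-fold, adjusted p = 0.00900), and 0 of the 6 others passed either way, where 18.8% of all probes were higher and 18.1% lower. Zfp36 stood at -0.47 ± 0.20 there (adjusted p = 0.0977) and Btg2 at -0.19 ± 0.18 (adjusted p = 0.430). Without control replicate 2 the baseline calls of Btg2 (-0.69), Zfp36 (-0.47), Rgs2 (0.65) and Sik1 (0.37) were lost, and without control replicate 1 those of Rgs2 (0.77) and Sik1 (1.01). The Sik1 call in salt held without either salt sample (0.80 and 1.16). These baseline ratios share their control arrays with the differences of the ratio above.

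Over the 8 arrays some pairs of members shared a profile, and no grouping into sets was tested. Btg2 and Zfp36 correlated at r = 0.95, Dusp1 and Btg2 at 0.95, Dusp1 and Errfi1 at 0.90, and Dusp6 and Rgs2 at 0.86. Sik1 and Zfp36 stood at -0.02. Errfi1 lay between, at 0.67 with Zfp36 and 0.60 with Dusp6. The arrays come in IP and input pairs from 4 samples, so these values only describe the profiles. The mean standardized level of the 7 members was between -0.95 and -0.54 on the 4 control arrays and between 0.49 and 1.06 on the 4 salt arrays. The 3 other genes whose level over the 8 arrays was most like it were Csrnp1 (r = 0.99), Nr4a1 (0.98) and Sgk1 (0.98), by Pearson correlation. Csrnp1 was detected on 2 of the 4 salt arrays and no control array and Nr4a1 on the 4 salt arrays alone, so their control values, and with them their place in this order, are background readings, while Sgk1 was detected on all 8. Csrnp1 and Nr4a1 encode transcription factors of the early response and Sgk1 a kinase induced by corticosteroids.

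Relatives of the members were read from lists of genes around them, with the brightest probe of each gene. Among 6 measured MAP kinase phosphatases other than Dusp1 and Dusp6, 0 passed in the IP or input. Dusp14 had the highest IP difference (0.86 ± 0.16, adjusted p = 0.167). It stood at 6.54 and 6.62 in control and 7.41 and 7.47 in salt, while its input difference was -0.09 ± 0.16. Dusp8 had the lowest (-0.10 ± 0.17). The list median was 0.26 in the IP and -0.06 in the input. Of 11 Sprouty, Spred, Socs and other inhibitors of receptor signalling, 0 passed, from Nf1, the neurofibromin gene, at -0.48 ± 0.32 to Socs2, a suppressor of cytokine signalling, at 0.45 ± 0.25, with an IP median of 0.05.

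Among 13 RGS genes other than Rgs2, 0 passed by their brightest probe, and the medians were 0.00 in the IP and 0.08 in the input. Rgs16 was the lowest in the IP (-0.72 ± 0.18, adjusted p = 0.436). Rgs1, a regulator of G-protein signalling best known from leukocytes, had 2 probes, neither of them detected on any control array. Its less bright probe was detected on both salt IP arrays (6.57 and 6.14) and on no other array. It entered the test only through the group in which it was high, so its difference (adjusted p = 0.0384) is given as a description. The bound was at least 1.44-fold higher in salt, setting the salt mean against, per control array, the lowest signal of any detected probe. The brightest Rgs1 probe was detected on 1 salt IP array and 1 salt input array. It too entered the test only through salt arrays, and it allowed no fold. The summed microglial markers were lower on the salt IP arrays, as given above, and their part in it was not tested.

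Of 10 measured relatives of the other members (Sik, Tribbles, Btg and Tob, Zfp36 and Ier families), 0 passed, with medians of 0.19 in the IP and -0.05 in the input. The antiproliferative gene Tob2 was the highest in the IP (0.53 ± 0.26) and Trib2 the lowest (-0.11 ± 0.16). Among 30 kinases, transducers and effectors on which the members act, 0 passed and the medians were -0.05 in the IP and -0.06 in the input. The MAP kinase gene Mapk7 had the lowest IP difference (-0.37 ± 0.20). The highest fitted value was that of the ERK gene Mapk3. Its brightest probe was detected on 2 salt IP arrays and on no control array of either RNA. It thus entered the test only through the group in which it was high. It is given as a description and only bounded, at least 1.18-fold higher, so its place is not settled. A second Mapk3 probe was detected on 1 control IP array and no salt IP array, and allowed no fold. The RAF kinase gene Araf stood next, at 0.42 ± 0.22 (adjusted p = 0.943). Its probe was near background too, detected on 1 salt IP and 1 control IP array and on no input array. No test set the members against these lists.

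**Figure D5:**
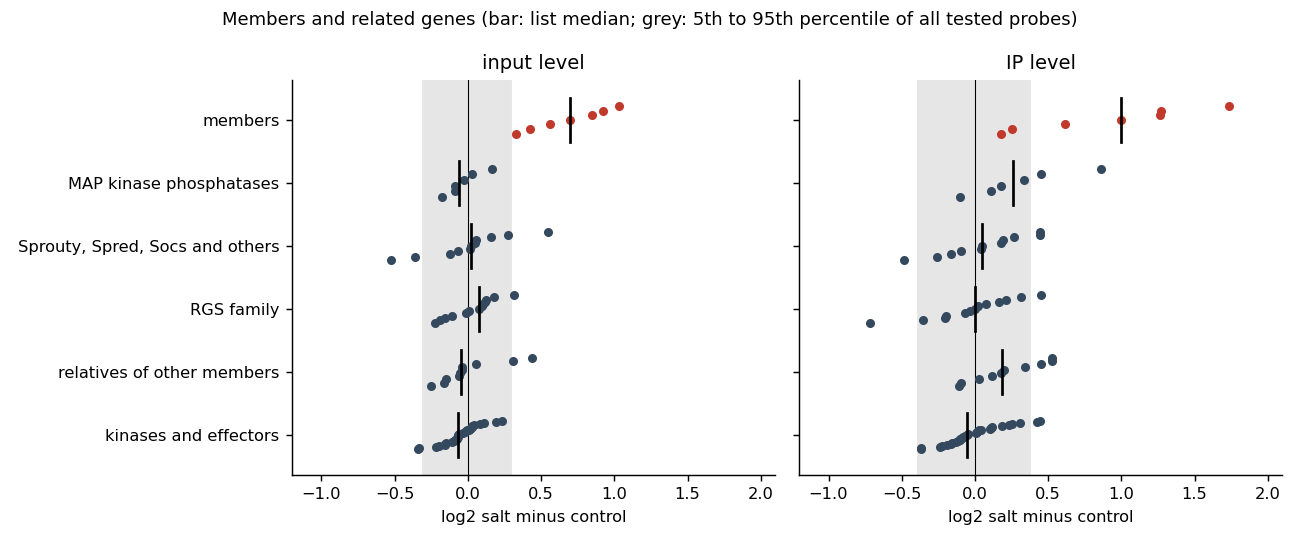
Salt minus control of log2 normalized intensity in the input (left) and IP (right) for the 7 measured members (red) and the genes of 5 related lists (dark blue), 1 point per gene, with a bar at each list's median and a grey band from the 5th to the 95th percentile of all tested probes. The member median including Sik1 is 1.00 in the IP and 0.69 in the input, and the medians of the related lists lie between -0.06 and 0.26. Points are fitted values, also where a gene was not detected in a group.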

How the data were processed

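RNA of phosphorylated ribosomes and total RNA of 4 samples was amplified (Ovation), biotin-labelled and read on 8 Illumina BeadArrays, per the labels' protocols. The submitters' processing notes list GenomeStudio, with no version. The authors deposited linear probe intensities with a detection p-value per array, per the file headers, and each sample's IP/input ratio, which equals the quotient of the intensities (largest relative gap 1.6e-09).

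Intensities were background-corrected with limma 3.58.1 in R 4.3.3 (nec, negative controls inferred from detection p, offset 16), quantile-normalized and put on the log2 scale. A probe was tested if its detection p was below 0.01 on 2 or more of the 8 arrays. A level fit had 4 group means (4 residual degrees of freedom) and a ratio fit 2 (2 residual degrees of freedom). Both used lmFit and eBayes, with Benjamini-Hochberg adjustment over 14199 probes, and the fit was tested on simulated data. A gene is represented by its brightest probe.

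Probe names came from RefSeq (20736 current, 3841 older symbols, 1120 kept from the file). Named genes are the members, list genes that passed, and otherwise the highest and lowest of each list in the IP. Members and lists were chosen with earlier results of these data known. The number of arrays limits the precision. Alternatives changed background correction, scaling, filter, pairing, probes per gene, empirical Bayes and samples.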

Additional observations from a re-analysis of the deposited data

Results flagged for a closer look

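Dusp1 was flagged because its log2 IP/input ratio differed in sign between the groups. It was below 0 in both control samples (-0.22 and -0.42) and above 0 in both salt samples (0.12 and 0.08). Salt samples lay above controls in this ratio for 13.7% of all probes, and the share that also differed in sign was not counted. The Dusp1 difference was 0.42, smaller than that of Btg2 (0.70) or Errfi1 (0.44). The test of this difference did not pass (0.42 ± 0.22, adjusted p = 1.00 in limma). With median scaling the salt ratio was -0.22, below 0 as in control, so the opposite signs depend on the scaling. The control ratio passed in that setting (-0.49, adjusted p = 0.0396 in limma). That scaling moved the median of all probes by -0.13 in salt and by -0.12 in control.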

How the results depend on the processing

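Of the single-gene results under alternatives, 498 kept their direction and side of the threshold, 21 lost a call, 8 gained one and 7 turned direction. The count of members higher in the IP (2) was 0 when dim probes were kept, 0 when each RNA was fitted alone, and 0 to 0 with 1 sample left out. With the replicate block it was 0 as well, with adjusted p of 0.0782 for Dusp1 and 0.0792 for Btg2. The labels do not say that replicate numbers pair samples, and deviations of same-numbered samples correlated at 0.14 in the IP and -0.23 in the input. The crossed pairing, added after seeing the data, gave 18 calls in the IP against 19 over all probes, and 2 of the members. The replicate block changed no other member's call. The count of members higher in the IP rose where Errfi1 passed beside Dusp1 and Btg2. That was with no background correction, with normexp without negative controls, and with trend and robust empirical Bayes. In control, the count higher in the IP than in the input (1) was 2 with no background correction, 2 with normexp without negative controls, and 0 to 2 with 1 sample left out. The count lower (2) was 1 with probes detected on all 8 arrays, since Zfp36 left the test, 3 with median scaling, which added Dusp1, and 0 to 2 with 1 sample left out.

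With median scaling, IP against input in salt turned to -0.22 for Dusp1, -0.11 for Dusp6 and -0.11 for Errfi1. With 1 sample left out it ran from -0.38 to 0.0049 for Btg2 and from -0.014 to 0.40 for Rgs2, IP against input in control from -0.43 to 0.018 for Errfi1, and the salt minus control difference of the Sik1 ratio from -0.028 to 0.61. These results did not pass in either form. A fit with 1 sample in a group assumes that it varies like the others. Probes near background limit Zfp36, Trib1 and Ier2.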
